A study of Triticum aestivum with 18 samples.

Results

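Wheat roots grown without phosphate fertiliser were compared directly with wheat roots grown on low nitrogen. The comparison used 6 of the 18 arrays of the series: 3 titled as no phosphate fertilisation (low P) and 3 titled as low nitrogen fertilisation (low N). Arrays were chosen by these titles, and the control arrays were not part of the difference. All 6 samples were roots of the winter wheat cultivar Hereward, taken at booting from the Broadbalk long-term field experiment, where wheat follows wheat on plots that differ in the fertiliser they receive. In low P plots phosphate was left out of the fertiliser, whereas the low N titles speak of a low and not an absent nitrogen supply. Rates of the other nutrients on either plot are not given in the labels. The other 12 arrays, 3 each from no potassium (low K), no magnesium (low Mg) and no sulfate (low S) plots and from a nutrient-replete control plot, were used to estimate the spread and to place the levels of both groups. In the labels' treatment text the list of limited nutrients repeats P and leaves out S, and the series text counts fewer samples than the 18 used here, so all groups rest on the sample titles. The number of plots behind each group is not stated. If the 3 samples of a group came from 1 plot, the p-values measure only the spread inside a plot, and the treatment cannot be told apart from its plot.

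Phosphorus and nitrogen are the nutrients plants take up as phosphate and, mostly, as nitrate or ammonium. Roots short of phosphate are known to make more high-affinity phosphate transporters and secreted phosphatases and to replace part of their membrane phospholipids with lipids that hold no phosphorus. Roots short of nitrogen are known to raise high-affinity nitrate and ammonium transport and to break down protein, and cereals then often store more of their carbon as fructan. These textbook responses could not be followed by name: the platform annotation gave 0 tested genes of phosphate uptake and 0 of nitrogen uptake and assimilation. Names other than a running number were available for 75 tested genes, which were sorted into 15 groups by role and were represented by 122 probe sets.

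Each array measured 61179 wheat probe sets as a MAS5 intensity, a summary of the brightness of the oligonucleotides for 1 transcript. Of these, 34255 (56%) were tested, namely those that fell below the median of the array on no more than 15 of the 18 arrays. Pearson correlations between log2 arrays were 0.96 to 0.9672 within low P and 0.9693 to 0.9718 within low N, against 0.9439 to 0.9565 between the groups. In a principal component analysis of the 6 arrays, the first component held 41.4% of the variance and separated low P (37.9 to 62.2) from low N (-53.1 to -46.7). Low P arrays 1 and 2 lay at opposite ends of the second component (18.7% of the variance), at 52.4 and -52.3. Array medians were 69 to 69.8 in low P and 60.1 to 61.1 in low N. Control probe sets for RNA integrity also differed: for a ubiquitin gene the ratio of 5' to 3' intensity was 1.12, 1.09 and 1.11 in the low P arrays, against 1.27, 1.23 and 1.31 in the low N arrays. The G6PDH 5'/3' ratio, the sucrose synthase middle/3' ratio and the 18S rRNA level were likewise lower in every low P array than in every low N array. For each of these 4 measures the exact permutation p was 0.1, the smallest that 3 against 3 arrays allow. The part of RNA integrity in the results below was not tested. The root label could be checked on DMAS1 only in part. This gene, which makes the iron-binding compound that grass roots secrete, read 1139, 1099 and 1053 on its brightest probe set in low P and 1116, 1001 and 1149 in low N. Its other probe sets were at -0.11 and -0.35 and were not called, the latter with arrays that did not overlap (limma adjusted p = 0.059). Phosphate and nitrate transporters and aquaporins had no tested gene with a name, and peroxidases had 1 by name, PER1. Its brightest probe set was far dimmer than that of DMAS1, at 151, 142 and 129 in low P and 117, 169 and 142 in low N. It was not called (-0.01; limma adjusted p = 0.985), nor was its other probe set (-0.57; limma adjusted p = 0.404).

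The low P and low N root transcriptomes differed at 5527 of 34255 probe sets (16.1% called, limma, Benjamini-Hochberg adjusted p under 0.05). In low P, 2384 probe sets were higher (6.96%) and 3143 were lower (9.18%) than in low N. Most of these differences were small: the median called probe set was 1.53-fold apart. Differences of at least 2-fold were called for 1101 probe sets (3.21%), of which 594 were higher (1.73%) and 507 lower (1.48%) in low P. Under quantile normalization, which gives all arrays the same distribution, this split turned to 494 higher and 644 lower, so the share that was higher was 54.0% as deposited and 43.4% after quantile normalization. Without low P array 2 it turned as well, to 561 higher and 742 lower (43.1% higher). Larger differences were fewer. At least 4-fold differences were called for 95 probe sets higher and 68 lower in low P, at least 8-fold for 33 and 12, and at least 32-fold for 2 and 0. In such bulk samples, fewer cells of a type and less RNA per cell cannot be told apart. The count of calls fell to 3003 without low P array 3 and to 3216 without low N array 3.

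**Figure D1:**
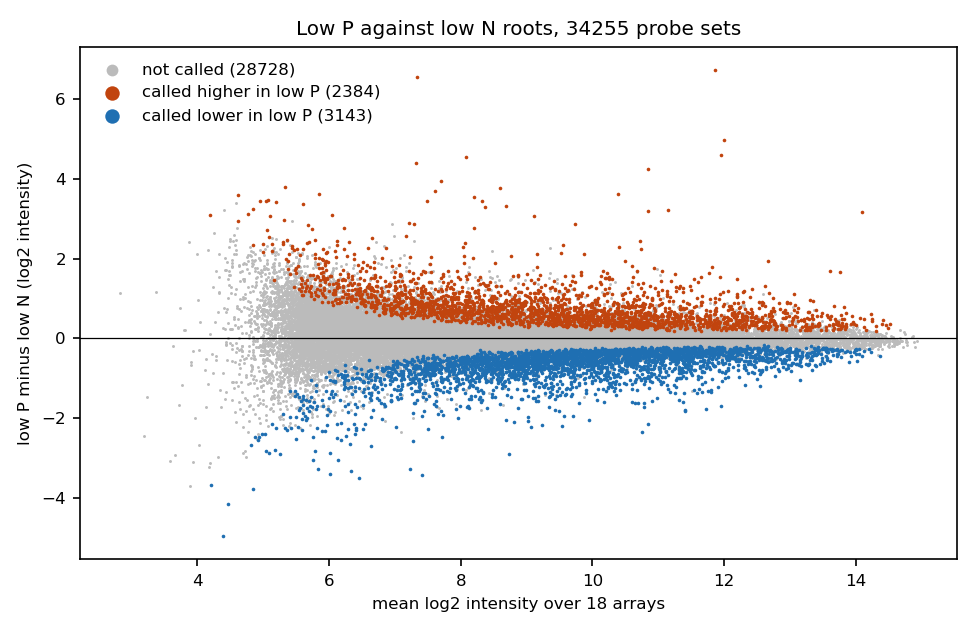
Difference between low P and low N (log2 intensity, vertical) against the mean log2 intensity over 18 arrays (horizontal), 1 point per tested probe set. Red points are the 2384 probe sets called higher in low P, blue points the 3143 called lower, and grey points those not called.

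The calls were spread unevenly over the range of intensity. With the probe sets split by brightness into 10 equal classes, 3.88% were called in the dimmest class and 27.4% and 25.3% in the brightest 2. In the dimmest class the median log2 difference was 0.25, and it was 0.04 after quantile normalization, whereas over all probe sets it was 0.02 as deposited and -0.01 after quantile normalization. Non-overlap between the 3 low P and the 3 low N arrays was common: it held for 12247 probe sets (35.8%), and 5363 of these were also called.

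**Figure D2:**
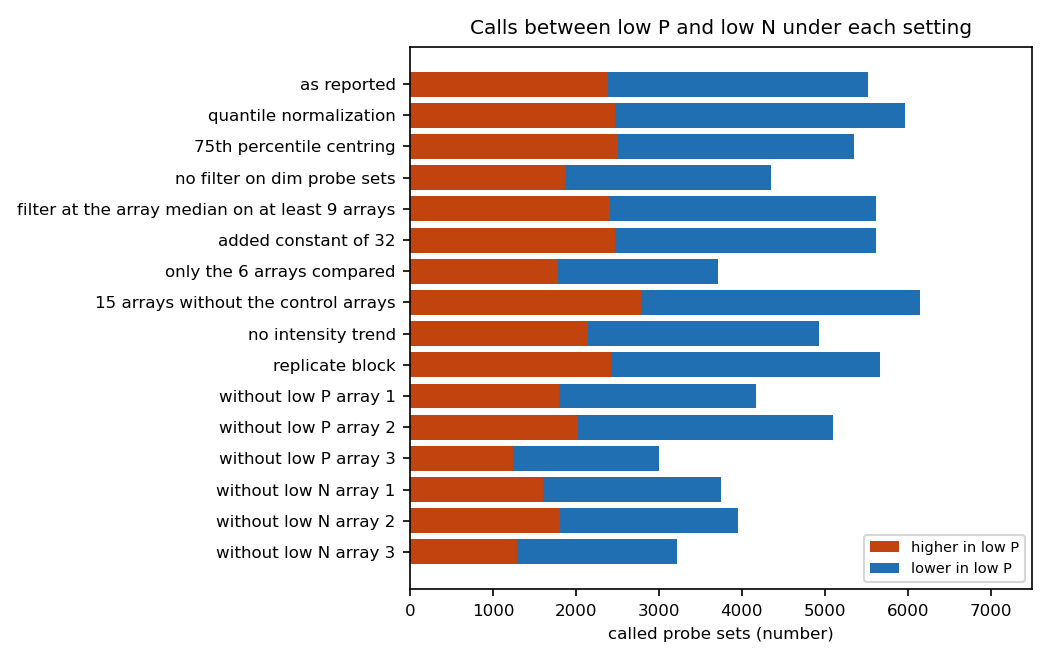
Number of probe sets called higher (red) and lower (blue) in low P than in low N, for the values as reported and for 15 alternatives. The lowest total is 3003 without low P array 3, and the highest is 6155 with the 15 arrays that leave out the control.

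To see which group departed from the rest, each was compared with the mean of the low K, low Mg and low S arrays. Low P differed from it at 2582 probe sets (7.54%), 1010 higher (2.95%) and 1572 lower (4.59%). Low N differed from it at 2745 probe sets (8.01%), 1361 higher (3.97%) and 1384 lower (4.04%). These 2 comparisons share the low K, low Mg and low S arrays, and their difference is the direct comparison itself, so the values are given side by side as a description. The counts were sensitive to single arrays: that of low P fell to 841 without low P array 1 and to 762 without low P array 3. The count of low N fell to 821, 1365 and 837 without low N arrays 1, 2 and 3.

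Among the 594 probe sets at least 2-fold higher in low P, the low P mean was the highest of the 6 groups for 454 (76.4%), and the low N mean was the lowest for 492 (82.8%). Their median log2 distance from the mean of low K, low Mg and low S was 0.55 for low P and -0.81 for low N. Among the 507 probe sets at least 2-fold lower in low P, the low P mean was the lowest of the 6 groups for 491 (96.8%) and the low N mean the highest for 346 (68.2%), with median distances of -0.91 for low P and 0.44 for low N. Over all tested probe sets that were higher in low P, the shares were 49.3% for low P highest and 38.7% for low N lowest, and over those that were lower, 46.9% for low P lowest and 49.2% for low N highest. For all called probe sets the 2 groups were nearer to symmetric, but not fully so. Of the 2384 higher ones low P was the highest group in 76.1% and low N the lowest in 75.9%, with median distances of 0.29 for low P and -0.37 for low N. Of the 3143 lower ones low P was the lowest group in 85.0% and low N the highest in 75.4%, with median distances of -0.29 for low P and 0.26 for low N. These probe sets were chosen on the difference between low P and low N, which raises the shares by itself, so they are a description and carry no test.

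**Figure D3:**
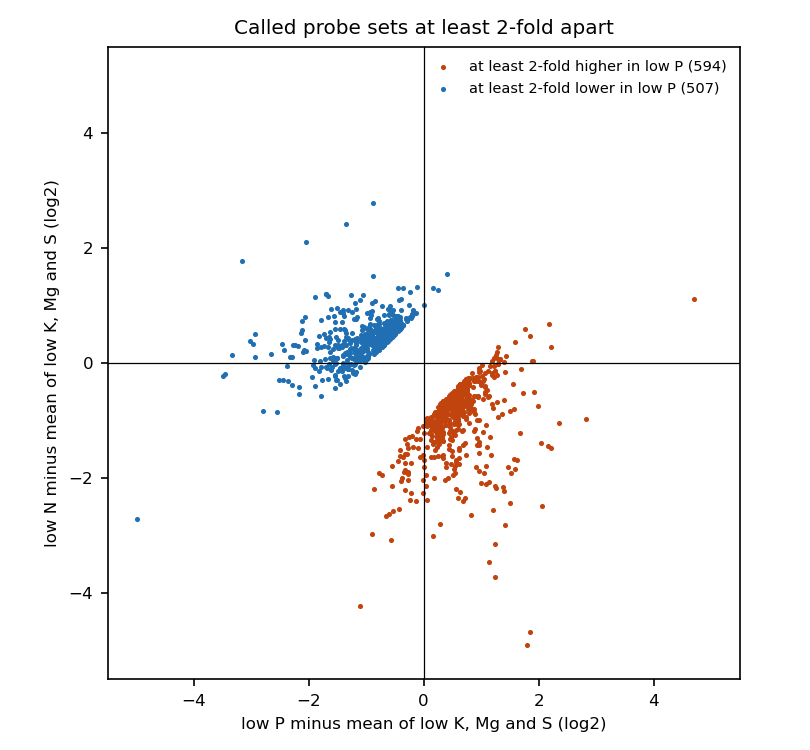
Distance of low P (horizontal) and of low N (vertical) from the mean of low K, low Mg and low S, in log2 intensity, for the 1101 probe sets called and at least 2-fold apart. The 594 red points (higher in low P) have median distances of 0.55 for low P and -0.81 for low N, and the 507 blue points (lower in low P) of -0.91 and 0.44, and the empty band along the diagonal comes from the 2-fold limit.

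By name, 19 of the 75 genes had at least 1 called probe set, and 34 of their 122 probe sets were called, 11 higher and 23 lower in low P, where 16.1% of all probe sets and 23.3% of those with a gene were called. Counted on the brightest probe set of each gene, 10 were lower, 7 were higher and 58 were not called, and the median log2 difference was -0.01. The lower ones included 4 histone genes and a beta-tubulin. The higher ones included the photosynthesis gene PsbP, 3 grain protein genes and LEA1.

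Core histones, the proteins around which DNA is wound and which dividing cells make as they copy their DNA, were mostly lower in low P than in low N roots. Of the 5 histone genes on their brightest probe sets, 4 were lower and 1 did not pass the test. Their median log2 difference was -0.52, beside 0.02 over all probe sets tested. Of their 18 probe sets 14 were called lower, where 9.18% of all probe sets were. Most of the 18 were bright, and in the brightest 2 of the 10 brightness classes 596 of 3425 and 484 of 3426 probe sets were called lower. On its probe set with the smallest p, H2A-9, a histone H2A, had intensities of 705, 895 and 434 in low P against 1511, 1455 and 1539 in low N. Every low P array was below every low N array, and low P array 3 was the lowest. The log2 difference was -1.21 ± 0.21 (SE; limma adjusted p = 0.00147). All 6 probe sets of the gene were called lower, at -1.21 to -0.55, with the brightest at -0.55. In the other groups the probe set with the smallest p averaged 1510 in low K, 1232 in low Mg, 1186 in low S and 1495 in the control. On it low N lay beside low K and the control while low P stood below all of them.

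The other histone genes had smaller differences on their probe sets with the smallest p. On the brightest probe sets H2A-3 had the largest difference, at -0.87, against -0.55 for H2A-9. H2A-3, also a histone H2A, had 2993, 3480 and 2144 in low P and 5577, 5124 and 4812 in low N (log2 difference -0.87 ± 0.16, SE; limma adjusted p = 0.00211). Its other probe set stood at -0.06 and was not called. On its probe set with the smallest p, the histone H2B gene wcH2B-8 had 3035, 4125 and 2227 in low P and 4966, 5066 and 5045 in low N (-0.73 ± 0.16; limma adjusted p = 0.0071). Of its 7 probe sets 5 were called lower, among them the brightest, at -0.52. The second H2B gene, wcH2B-6, had 4314, 5708 and 3909 in low P and 6491, 6192 and 6672 in low N (-0.49 ± 0.13; limma adjusted p = 0.0184), with both probe sets called. In all 4 genes low P array 3 was the lowest array of its group and low P array 2 the highest. The groups did not overlap, which was a condition for choosing these probe sets. H2A-2 was the exception, with 1056, 1370 and 825 in low P and 786, 1260 and 979 in low N (0.10; limma adjusted p = 0.83). The count of 4 fell to 2 without low P array 1, low P array 3 or low N array 3, and to 2 with only the 6 arrays. The call of wcH2B-6 was lost without low P array 1 or 3 or low N array 1 or 3 and with only the 6 arrays (adjusted p = 0.051 to 0.0964), and that of wcH2B-8 with only the 6 arrays (adjusted p = 0.0509).

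Of 7 tubulin and profilin genes, which build microtubules and govern actin filaments, 1 was lower in low P and 6 did not pass (median log2 difference -0.06), a share near the 9.18% of all probe sets that were lower. The gene that was lower was the beta-tubulin Tubb5, on all 4 of its probe sets (-1.17 to -0.80). On the probe set with the smallest p it had 1914, 2301 and 1698 in low P and 3230, 3497 and 3681 in low N. The groups were separated by a wide gap, and the log2 difference was -0.83 ± 0.09 (SE; limma adjusted p = 8.03e-05), a 1.77-fold lower level. Tubb5 averaged 2922 in low K, 2420 in low Mg, 2200 in low S and 3050 in the control, which put low P at the bottom and low N at the top of the 6 groups. The alpha-tubulin TUBA (-0.15 on its brightest probe set) and the beta-tubulins tubb2 (-0.19) and Tubb4 (0.14) were not called. After quantile normalization 2 of the 7 genes were called lower instead of 1.

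Photosynthesis genes are usually low in roots and serve as markers of green tissue. Of the 4 tested, each on its brightest probe set, 1 was higher in low P and 3 did not pass, and the median log2 difference was 0.98. Of the 11 probe sets 4 were called higher, where 6.96% of all probe sets were. PsbP, which helps photosystem II to split water, had 174, 486 and 436 in low P and 156, 142 and 127 in low N. Low P array 1 lay just above the low N arrays, and the other low P arrays lay far above them. The log2 difference was 1.24 ± 0.35 (SE; limma adjusted p = 0.0256). The mean of PsbP was 448 in low K, 460 in low Mg, 613 in low S and 326 in the control, so low N was the group that stood apart: against the mean of low K, low Mg and low S, low N was at -1.79 (limma adjusted p = 0.00223) and low P at -0.55 (limma adjusted p = 0.271).

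In PsbO and petC, too, low P array 1 was the lowest of its group. PsbO, another protein of the water-splitting complex, had 210, 523 and 509 in low P and 181, 220 and 195 in low N, so the groups overlapped (0.95; limma adjusted p = 0.104). The gene petC, for the Rieske protein of the cytochrome b6f complex, had 134, 375 and 319 in low P and 132, 126 and 117 in low N (1.01; limma adjusted p = 0.0766). The gene rbcl, known here only by its name, that of the large subunit of Rubisco, was called higher on 3 of 7 probe sets. On the probe set with the smallest p it had 149, 231 and 118 in low P against 51.3, 61.2 and 28.2 in low N (1.84 ± 0.46, limma adjusted p = 0.0131). Its brightest probe set was far brighter and was not called, at 16430, 21831 and 22444 in low P and 20728, 18497 and 18314 in low N (0.07; limma adjusted p = 0.752). The probe sets of rbcl therefore disagree: the called ones were of intermediate brightness, and among the uncalled ones 1 dim probe set was at -0.44 and another at 1.42. Without rbcl, the summed level of the other 3 genes was 517 to 1384 in low P and 439 to 488 in low N, beside 698 to 1371 in low K, 1015 to 1425 in low Mg, 1111 to 2292 in low S and 550 to 989 in the control. The part of green tissue in these values was not tested. The count of 1 of 4 genes fell to 0 when low P array 2 or 3 or low N array 2 or 3 was left out and with only the 6 arrays (adjusted p of PsbP 0.0603 to 0.108), and it was 3 without low P array 1. The call of the rbcl probe set was lost without low N array 3 (adjusted p = 0.0657).

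Grain proteins and grain enzyme inhibitors served as markers of another organ. Of 5 such genes 3 were higher in low P, 0 were lower and 2 did not pass (median log2 difference 1.11), where 6.96% of all probe sets were higher. The 3 called ones were dim, mostly below the array medians in low N and above them in low P. The summed level of the 5 genes was 6997 to 7889 in low P and 6362 to 6657 in low N, most of it from the gene ALP, which was not called (0.15; limma adjusted p = 0.184). WMAI-1, an inhibitor of alpha-amylase, had 108, 116 and 98.6 in low P and 43.5, 49.8 and 48.8 in low N (1.18 ± 0.33, SE; limma adjusted p = 0.0237). The gliadin storage protein gene gli-2 had 102, 102 and 82.3 in low P and 40.9, 37.7 and 55.4 in low N (1.11 ± 0.36; limma adjusted p = 0.043). The third, wci, was called at 1.46 ± 0.41 (limma adjusted p = 0.0229) although its arrays overlapped, at 71.9, 151 and 116 in low P and 71.9, 43.9 and 19.1 in low N. After quantile normalization 1 of the 5 genes was called. The count was 0 without low P array 2 or 3 or low N array 3, and it was 1 when another of the 6 arrays was left out. WMAI-1 lost its call under quantile normalization and without any 1 of the 6 arrays (adjusted p = 0.0505 to 0.07), as did gli-2, which also lost it without the filter and with the replicate number as a block (adjusted p = 0.053 to 0.119). The call of wci was lost without low P array 2 or 3 or low N array 3 and with only the 6 arrays (adjusted p = 0.074 to 0.11).

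Late embryogenesis abundant (LEA) proteins, dehydrins and Em proteins accumulate in drying seeds and in water-stressed tissue. Of 4 such genes 1 was higher in low P and 3 did not pass (median log2 difference 0.56), where 6.96% of all probe sets were higher. LEA1 was among the brighter named genes, with 14355, 12147 and 17245 in low P and 5722, 6175 and 5571 in low N. The lowest low P array was far above the highest low N array. The log2 difference was 1.31 ± 0.28 (SE; limma adjusted p = 0.00567), a 2.48-fold higher level, and the call held under all 15 alternatives. LEA1 averaged 3666 in low K, 5523 in low Mg, 8126 in low S and 5127 in the control, so here low P stood apart: it was 1.44 above the mean of low K, low Mg and low S (limma adjusted p = 0.00179), and low N was 0.13 above it (limma adjusted p = 0.778). For the dehydrin gene Rab15 the brightest probe set was not called, at 15594, 14772 and 16980 in low P and 16268, 14068 and 16394 in low N (0.02; limma adjusted p = 0.948). A further Rab15 probe set read 12364, 8993 and 11430 in low P and 6534, 6745 and 6488 in low N and was not called (0.72; limma adjusted p = 0.21).

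Enzymes of fructan, starch and sugar metabolism did not move in 1 direction. Of 7 genes 1 was higher in low P, 2 were lower and 4 did not pass, where 16.1% of all probe sets were called; the median log2 difference was 0.08 and turned to -0.13 after quantile normalization. The gene 6-FEH, for a fructan exohydrolase that cuts stored fructan at its beta-2,6 bonds, had 124, 144 and 111 in low P and 328, 239 and 275 in low N. The groups did not overlap, and the log2 difference was -1.15 ± 0.23 (SE; limma adjusted p = 0.00332). Low N was the group that stood apart, since 6-FEH averaged 105 in low K, 122 in low Mg, 115 in low S and 138 in the control, and low N was 1.30 above the mean of low K, low Mg and low S (limma adjusted p = 0.000907) and low P 0.15 above it (limma adjusted p = 0.67). A second probe set of 6-FEH was at -0.52 and was not called. The related gene 1-FEH, which cuts beta-2,1 bonds, had 6279, 6805 and 7706 in low P and 5975, 6268 and 5984 in low N (0.19; limma adjusted p = 0.111).

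Starch enzymes differed by less. AGP-S, the small subunit of the ADP-glucose pyrophosphorylase that feeds starch synthesis, had 1880, 2104 and 1961 in low P and 2590, 2410 and 2783 in low N (-0.39 ± 0.11, SE; limma adjusted p = 0.0255). The beta-amylase gene BMY1, whose product releases maltose from starch, had 250, 248 and 301 in low P and 125, 114 and 223 in low N (0.85 ± 0.26; limma adjusted p = 0.0368). In neither gene did the groups overlap. AGP-S lost its call without low P array 1 or 3 or low N array 1 or 3 (adjusted p = 0.0635 to 0.1). BMY1 lost it without any 1 low P array, without low N array 1 or 2, without the filter, without the intensity trend and with only the 6 arrays (adjusted p = 0.0501 to 0.139). The count of 3 genes was 1 without low P array 3 or low N array 1.

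**Figure D4:**
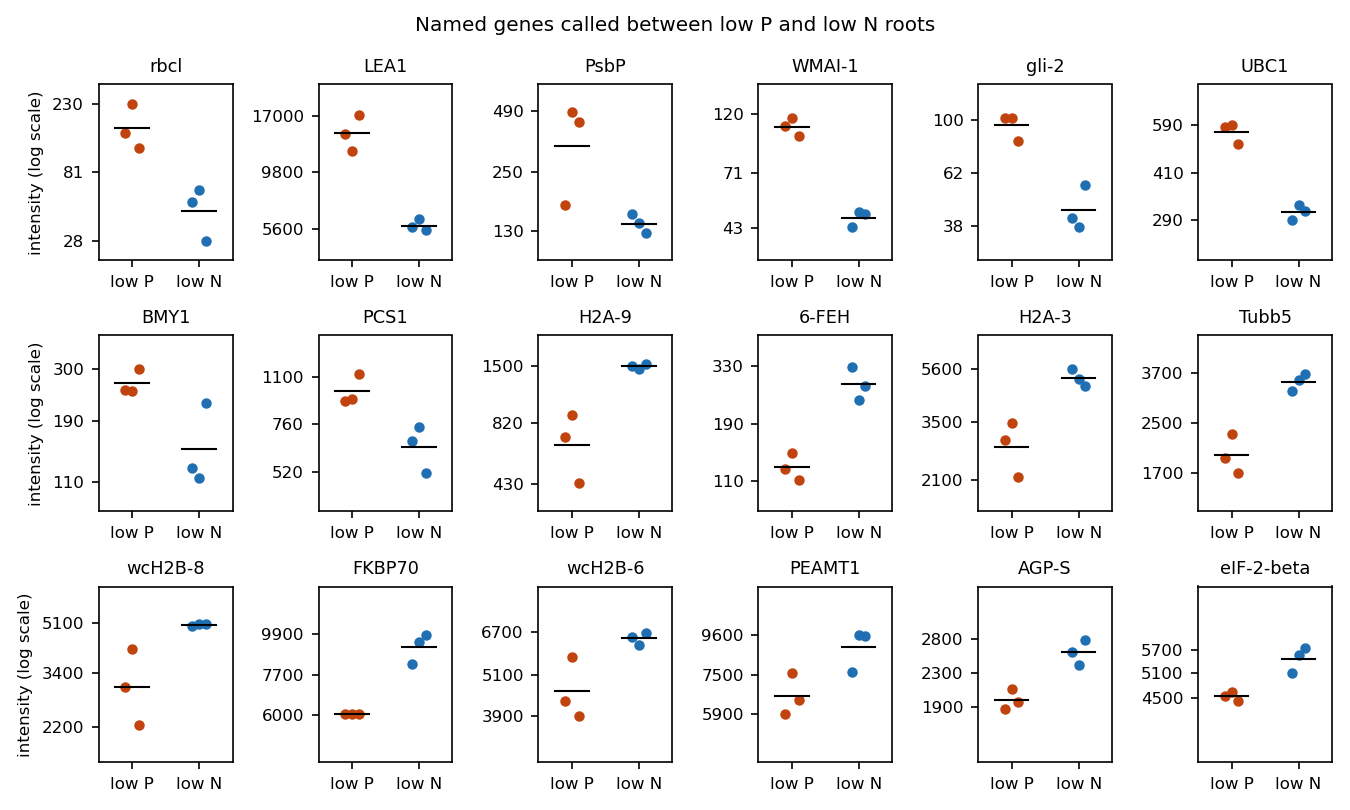
Intensity (log scale) of the 18 genes chosen by the naming rule, in the 3 low P arrays (red) and the 3 low N arrays (blue). Each point is 1 array and the line is the mean of the log2 values. The first 8 panels are higher in low P and the last 10 are lower. The groups overlap in none of them because the naming rule required it.

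Protein folding and turnover held 5 genes, of which 1 was lower in low P and 4 did not pass on their brightest probe sets (median log2 difference -0.10). Of all probe sets 9.18% were lower. FKBP70, a large immunophilin that isomerises proline bonds and acts with the HSP90 chaperone, had 6026, 6020 and 6006 in low P and 8220, 9460 and 9885 in low N. The low P arrays were nearly identical, and the log2 difference was -0.61 ± 0.07 (SE; limma adjusted p = 8.03e-05), with the call held under all 15 alternatives. FKBP70 averaged 8918 in low K, 6822 in low Mg, 6644 in low S and 8309 in the control, so low P was the lowest and low N the highest group. UBC1, a ubiquitin-conjugating enzyme, was called higher on 1 of 3 probe sets, at 581, 589 and 512 in low P and 289, 324 and 310 in low N (0.86 ± 0.26; limma adjusted p = 0.0314). Its brightest probe set read 12088, 12658 and 15338 in low P and 14699, 13762 and 14357 in low N (-0.10; limma adjusted p = 0.562), so the probe sets of UBC1 disagree, and the call was lost without any 1 of the 6 arrays (adjusted p = 0.0605 to 0.0878). After quantile normalization 2 of the 5 genes were called, 1 higher and 1 lower.

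Of 10 genes of translation and transcription 1 was lower in low P and 9 did not pass (median log2 difference -0.17), close to the 9.18% of all probe sets that were lower. The one called was eIF-2-beta, a subunit of the factor that brings the initiator tRNA to the ribosome, at 4560, 4642 and 4452 in low P and 5091, 5556 and 5734 in low N. Its arrays did not overlap but the difference was only -0.26 ± 0.07 (SE; limma adjusted p = 0.0163). The call was lost without low P array 3, low N array 2 or low N array 3 and with only the 6 arrays (adjusted p = 0.0528 to 0.075), which left 0 of the 10 genes called.

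PEAMT1 makes phosphocholine, a precursor of the phospholipid phosphatidylcholine, by methylating phosphoethanolamine. It had 5886, 7571 and 6433 in low P and 7645, 9591 and 9557 in low N, with the highest low P array just under the lowest low N array (-0.43 ± 0.12, SE; limma adjusted p = 0.0228). Low P was the lowest of the 6 groups, at -0.51 against the mean of low K, low Mg and low S (limma adjusted p = 0.00526), where low N was at -0.08 (limma adjusted p = 0.647). It was the only one of the 3 genes of the methyl cycle, choline and lignin that was called, where 9.18% of all probe sets were lower. SAHH, which clears the product of methylation, was at -0.22 and COMT1, a methyltransferase of lignin synthesis, at 0.01. The call of PEAMT1 was lost without low P array 1 or 3, without low N array 2 or 3 and with only the 6 arrays (adjusted p = 0.0627 to 0.0903), and 0 of the 3 genes were then called. After quantile normalization 2 of them were called.

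Among 3 genes of metal and aluminium handling 1 was higher in low P, where 6.96% of all probe sets were. PCS1, a phytochelatin synthase that builds metal-binding peptides from glutathione, had 905, 923 and 1126 in low P and 665, 738 and 515 in low N. The groups did not overlap, the log2 difference was 0.63 ± 0.13 (SE; limma adjusted p = 0.00513), and the call held under all 15 alternatives. TaALMT1, the malate channel through which wheat roots release malate that binds aluminium, had 50.3, 86.1 and 61.3 in low P and 121, 149 and 126 in low N. Although its groups did not overlap it did not pass the test (-1.03 ± 0.45; limma adjusted p = 0.126), and with only the 6 arrays 2 of the 3 genes were called.

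The other named groups, with 31 probe sets of 22 genes, had 0 called by limma, and 4 of these probe sets had an unadjusted p under 0.05. Of all 34255 probe sets 16.1% were called, and 10660 had an unadjusted limma p under 0.05. These groups were 8 genes of defence and cell wall (median log2 difference -0.06), 3 of gibberellin synthesis (0.27), 3 of glutathione and catalase (0.11), 2 of ion transport (-0.01), 2 of purine salvage and synthesis (0.04) and 4 with no role assigned (0.01). XTH, an enzyme that remodels the xyloglucan of cell walls, came closest among the defence and cell wall genes, at 399, 627 and 468 in low P and 800, 663 and 654 in low N (-0.52 ± 0.19; limma adjusted p = 0.0707).

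**Figure D5:**
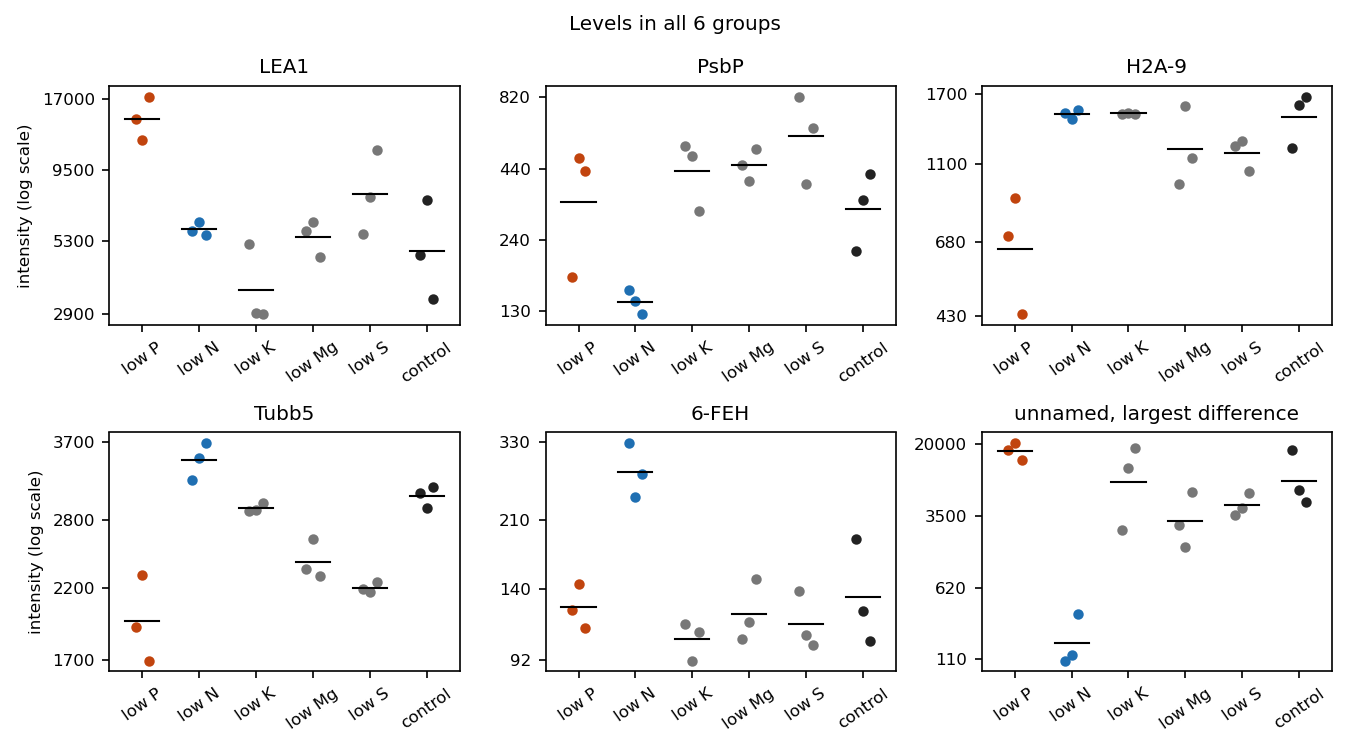
Intensity (log scale) in all 6 groups for 5 named genes and for the unnamed probe set with the largest difference between low P and low N; each point is 1 array and the line is the mean of the log2 values. Low P stands apart in LEA1 and H2A-9, low N in PsbP and 6-FEH. In Tubb5 low P is the lowest and low N the highest group. In the unnamed probe set low P has the highest mean and low N by far the lowest, and single low K and control arrays lie within the low P range.

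Most called probe sets, like most of those tested, had no gene name: 5303 of the 5527 called had none. Of all 34255 tested only 961 had a gene, and 23.3% of these were called, beside 16.1% of all. The largest differences lay among the unnamed probe sets. The probe set with the largest rise had 17377, 20438 and 13804 in low P and 107, 121 and 326 in low N, a log2 difference of 6.72 ± 0.64 (SE; limma adjusted p = 2.49e-05). It was bright in every other group, with means of 10699 in low K, 3638 in low Mg, 4696 in low S and 9633 in the control, so low N lay far below all of them. Low P had the highest mean and was called against the mean of low K, low Mg and low S too, at 1.80 (limma adjusted p = 0.046), where low N was at -4.91 (limma adjusted p = 7.88e-05). Low K array 3, at 18432, and control array 1, at 17300, lay within the low P range. The second largest rise was a probe set with 873, 820 and 521 in low P and 6.5, 7.86 and 9.17 in low N (6.53 ± 0.53; limma adjusted p = 5.72e-06). Its means were 432 in low K, 137 in low Mg, 177 in low S and 478 in the control, so low P again had the highest and low N the lowest mean. Here too low K array 3 (687) and control array 1 (861) lay within the low P range. The low N values of this second probe set were far below the array medians and cannot be separated from background, so the size of its difference is uncertain.

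Among unnamed probe sets lower in low P, the one with the largest difference had 2.02, 3.39 and 2.83 in low P and 70.6, 82 and 97.1 in low N (-4.94 ± 1.03, SE; limma adjusted p = 0.00483). The next one had 2, 1.86 and 31.8 in low P and 105, 75.6 and 84.3 in low N (-4.15 ± 1.30; limma adjusted p = 0.039). Both were below the array median on every low P array and not far above it in low N, so these differences too are of uncertain size. The first reached the median on all 3 low N arrays and otherwise only on 1 low K and 1 control array. It was therefore tested only through the group in which it was high. The call of the second one was lost without low P array 1 or 2, without any 1 low N array, without the filter, with only the 6 arrays, without the control arrays and with the replicate number as a block (adjusted p = 0.0504 to 0.12). Among the 20 unnamed probe sets with the smallest p, 16 were higher in low P, whereas 43.1% of all called probe sets were. The first of them averaged 26557 ± 1460 in low P and 2985 ± 699 in low N (SD, n = 3 each), with 30843 in low K, 21678 in low Mg, 20532 in low S and 28006 in the control.

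A further 581 tested genes carried only a running number. Of their 839 probe sets 190 were called (22.6%, beside 16.1% of all probe sets), 62 higher and 128 lower in low P, in 168 genes. The 5 largest differences in each direction, chosen after their values were seen, are given by number because the annotation holds no description of them. LOC543150 was the brightest of the higher ones, at 15316, 15971 and 13505 in low P and 3802, 3435 and 7564 in low N (1.69 ± 0.26, SE; limma adjusted p = 0.000677). Its means of 20011 in low K, 12324 in low Mg, 14291 in low S and 16845 in the control again put low N apart. The other probe set of LOC543150 was also called higher, at 0.48. LOC543448 had 388, 1560 and 1272 in low P and 167, 291 and 182 in low N (2.15 ± 0.45, limma adjusted p = 0.00503), with low P array 1 nearest to low N as in PsbP, PsbO and petC. Its other probe set was at 0.51 and was not called.

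LOC543416 was lower, at 64.4, 84.9 and 71.5 in low P and 249, 294 and 233 in low N (-1.82 ± 0.31; limma adjusted p = 0.00132). Its means of 238 in low K, 163 in low Mg, 197 in low S and 220 in the control put low P apart. LOC543147 had 255, 474 and 278 in low P and 753, 769 and 833 in low N (-1.28 ± 0.23; limma adjusted p = 0.00176). The calls of these 4 numbered genes held under all 15 alternatives. The other 6 were higher in low P for LOC100037569 (1.76), LOC100037553 (1.60) and LOC543355 (1.32), and lower for LOC780687 (-3.67), LOC543176 (-1.62) and LOC780602 (-1.30). The other probe set of LOC780687 was at -0.16 and was not called. For LOC543176 1 of 3 probe sets was called (-1.62 to -0.49), and for LOC780602 3 of 5 (-1.30 to 0.14). LOC780687 was far below the array median in low P, at 12.9, 3.92 and 7.22, and above it on the 3 low N arrays alone (127, 77.6 and 76.5), so it was tested only through the group in which it was high, and the size of its difference is uncertain. With only the 6 arrays, each of these 6 genes but LOC780687 lost its call, and without low P array 3 each but LOC100037553 did. Leaving out low N array 2 also ended the calls of LOC100037569, LOC543355 and LOC780687, low N array 1 those of LOC543355, LOC780687 and LOC780602, and low N array 3 and low P array 2 those of LOC543355 and LOC780687. LOC543355 also lost its call without the filter. Over the alternatives that ended a call of these 6, the adjusted p was 0.0508 to 0.13.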

How the data were processed

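Affymetrix Wheat Genome arrays were hybridised with root RNA, 18 arrays in 6 groups of 3. Linear intensity values, 1 for each probe set on each array, were deposited by the authors; MAS5 and Affymetrix Expression Console are named per the submitters' processing notes, without versions or a scaling target. The mean of each array without its highest and lowest 2% of values was 500.1, so the arrays share a scale and not a distribution. The 111 control probe sets were left out of the tests.

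Log2 intensities with no added constant of all 18 arrays were fitted as 6 group means by lmFit of limma 3.58.1 (R 4.3.3) and moderated by eBayes with trend, with 12 residual and 4.39 prior degrees of freedom. The contrast was low P minus low N, two-sided, with Benjamini-Hochberg adjustment over 34255 probe sets, so the control arrays entered only the spread. The script was tested on simulated data. A gene was counted on its brightest probe set. The 15 alternatives were 2 scalings, 2 filters, an added constant of 32, 2 smaller sets of arrays, no trend, the replicate number as a block and each of the 6 arrays left out. Detection calls were not used, and the number of arrays limits the precision.

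Gene names came from the platform annotation: 1273 wheat probe sets had 1 gene, 0 had several and 59906 had none. RefSeq's gene table (IWGSC CS RefSeq v2.1) held 770 of the 771 genes and was used for names only. Probe sets with the suffix _s_at, _x_at or _a_at may also bind related transcripts, such as copies on the other genomes of hexaploid wheat. Of 23 name lists 9 had no tested gene, so role groups were formed from the named genes. The members and lists were chosen with earlier results of these data known. The naming rule took up to 15 genes per direction, with an informative name, called and with arrays that did not overlap (1 probe set per gene, smallest p), and the 2 largest unnamed differences per direction; it gave 8 higher and 10 lower genes. Other named genes are examples of their groups. Plots were made in Python 3.11.15 (matplotlib 3.10.9).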

Additional observations from a re-analysis of the deposited data

How the results depend on the processing

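The count of 5527 probe sets ran from 3003 to 5098 with 1 array left out, that of 1101 at least 2-fold apart from 750 to 1303, that of low P against low K, low Mg and low S from 762 to 3046 and that of low N from 821 to 2977. Over the other alternatives the count of calls was 3715 with only the 6 arrays, 4353 without the filter and up to 6155 without the control arrays, and an added constant of 32 left 719 probe sets at least 2-fold apart. With only the 6 arrays the low K, low Mg and low S mean could not be formed. The called genes per group ran, with 1 array left out, from 2 to 4 for histones, 0 to 3 for photosynthesis, 1 to 2 for fructan, starch and sugar, 0 to 1 for grain proteins, 0 to 1 for translation and transcription and 0 to 1 for methyl cycle, choline and lignin. With only the 6 arrays they were 2 for histones, 0 for photosynthesis, 0 for translation and transcription, 0 for methyl cycle, choline and lignin and 2 for metals. Under quantile normalization they were 2 for tubulins, 1 for grain proteins, 2 for protein folding and 2 for methyl cycle, choline and lignin. The fructan, starch and sugar count was 2 with only the 6 arrays, and the grain count was 2 without the filter. The cause of these changes was not tested. Of 33 genes and probe sets followed singly, 29 had a value under all 15 alternatives and 13 of these kept their call throughout; the other 4 were removed by the stricter filter, and 1 of them kept its call under the remaining 14; over 491 single values 89 were no longer called and 0 changed sign.

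Same-numbered low P and low N arrays deviated together with r of 0.12, 0.167 and 0.0679, and differently numbered ones with r of -0.123 to 0.00112. All same-numbered values were thus the higher ones, but not all were above 0.1, and the numbers were not taken as pairs. With the replicate number as a block 5662 probe sets were called.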
